A study of Mus musculus with 6 samples.

Results

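2DG and 2FF are monosaccharide analogs that interfere with glycan assembly, and the cells compared here came from 1 mouse given 2DG and 1 mouse given 2FF, each as the only drug. All cells of these 2 single-cell RNA sequencing libraries that had at least 250 genes and at most 5% mitochondrial UMIs (unique molecular identifiers, each standing for 1 captured RNA molecule) were kept. Each class had 1 or more panels of 6 markers, and its score in a cell was the most markers of 1 panel carried. Monocytes pooled a classical and a non-classical panel, and dendritic cells a type 1, type 2, mature and plasmacytoid panel. A cell was assigned to 1 of 7 immune classes at a score of 3 or more, at least 2 above any other class. The 2FF library gave 6786 such cells of 9222 that passed (73.6%), and the 2DG library 5811 of 7703 (75.4%). Together these are 12597 gated cells, of 51633 cells that passed in the 6 libraries of the series.

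The mice were female C57BL/6 animals, aged 6 to 8 weeks, with orthotopic KPCA tumors. KPCA is a mouse ovarian cancer line proficient in homologous recombination, injected into the ovarian bursa. In the 2FF group (2F-Peracetyl-Fucose) the tumor cells had been cultured with 2FF (300 µM) over 3 days ahead of injection, and the animal then received 2FF by oral gavage every 2 days. In the 2DG group (2-Deoxy-D-glucose) the animal received 500 mg/kg intraperitoneally every 2 days from day 9. Both were killed on day 30. The control animal received solvent and rat IgG, and the 3 further animals received anti-PD-L1 alone, 2DG plus anti-PD-L1 or 2FF plus anti-PD-L1. Dose, route, start and the pre-treatment of the tumor cells all differ between the 2 drugs, so compound and schedule cannot be told apart. With 1 mouse per group, differences between mice, library preparations and drugs cannot be told apart, no test was possible, and every interval below is at 95% and covers counting error only.

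2DG is a glucose analog that is phosphorylated by hexokinase and cannot proceed through glycolysis. It also resembles mannose, and can be built into the lipid-linked precursor of N-glycans, which halts N-glycan assembly. 2FF is a fucose analog that cells turn into a false sugar nucleotide, which blocks fucosyltransferases and lowers the supply of GDP-fucose. Branched and fucosylated N-glycans sit on T cell receptors, on PD-1 and on its ligand PD-L1, and affect how long these proteins stay on the cell surface.

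Lymph node is the tissue named in the labels, and young and aged mice are mentioned in the design text, whereas tumors are described in the methods. The RNAs of lymph node stroma (9 genes, among them Ccl21a and Cxcl13) summed to 103 CPM (UMI counts scaled to one common total per library) in the 2FF library and 74.8 CPM in the 2DG library. The 6 keratin and epithelial markers summed to 24.3 and 32.2 CPM, and only 12 and 7 cells were gated as keratin-positive. Both libraries thus consisted almost wholly of immune cells, and neither tissue label was tested further. The libraries held 72009925 UMIs (2FF) and 61859753 UMIs (2DG), with a median of 6505.5 and 6745 UMIs per cell. Cells with too many markers of a second class to be assigned were 19.6% (2FF) and 14.9% (2DG) of those that passed, and 51.0% and 46.9% of them stood between macrophages and monocytes. From 16 to 34 cell barcodes were shared by any pair of the 6 libraries.

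Both libraries were rich in T cells and poor in neutrophils beside the control library. T cells were 43.0% of gated cells with 2FF (2917 cells) and 46.7% with 2DG (2714 cells), against 6.24% in the control. Neutrophils were 6.68% with 2FF and 5.61% with 2DG, against 47.1% in the control. The 2 drugs therefore stood far closer to each other than to the control in these classes. This was not particular to them, since the control stood apart from every treated library. Anti-PD-L1 alone gave 40.8% T cells and 3.89% neutrophils. Among mice that got the antibody on top of a drug, T cells were 32.5% (2FF) and 39.4% (2DG). Their neutrophils were 5.66% (2FF) and 3.50% (2DG). The difference in T cells, 2FF minus 2DG, was -3.72 percentage points (interval -5.46 to -1.98).

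The smaller classes separated the 2 drugs more clearly in relative terms. Natural killer (NK) cells were 2.00% with 2FF and 4.16% with 2DG. B cells went the other way, with 4.14% under 2FF and 2.00% under 2DG. Dendritic cells, which present antigen to T cells, were 4.598% with 2FF and 7.45% with 2DG. Monocytes made up 25.8% and 22.7%, and macrophages 13.8% and 11.3%. All of these intervals of the difference left out 0, the nearest to it being that of the neutrophils, 0.222 to 1.90 percentage points. The neutrophil difference was 0.00101 percentage points when cells were reduced to 2000 UMIs each before gating and shallower cells left out. Neutrophils held a median of only 2496 UMIs with 2FF and 2939.5 with 2DG.

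The sharpest contrast lay inside the T cells. CD8 T cells (Cd8a or Cd8b1 without Cd4 or Foxp3) were 68.2% of T cells with 2FF and 49.4% with 2DG, a difference of 18.8 percentage points (16.3 to 21.4). CD4 T cells without Foxp3 were 15.8% with 2FF and 23.1% with 2DG. Regulatory T cells, marked by the transcription factor Foxp3 and known to restrain other T cells, were 4.49% with 2FF (131 cells) and 13.9% with 2DG (377 cells). There were 15.2 CD8 T cells for each regulatory T cell with 2FF, 3.55 with 2DG and 1.51 in the control. The 2FF library held the highest share of CD8 T cells and the lowest share of regulatory T cells of all 6 libraries, whose other CD8 shares ran up to 64.0% and other regulatory shares down to 7.74%.

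The same 2 drugs were also given with anti-PD-L1, in 2 further mice that share no library with the first pair. In that pair the CD8 share was 59.5% with 2FF and 64.0% with 2DG, and the regulatory share was 10.9% with 2FF and 7.74% with 2DG. Both differences therefore had the opposite sign there (-4.52 and 3.17 percentage points). B cells also reversed, with 3.63% under 2FF and 6.10% under 2DG. NK cells kept their direction, with 3.37% under 2FF and 5.57% under 2DG, and so did T cells, neutrophils, monocytes and macrophages. Dendritic cells were 3.88% and 3.80% in that pair, with an interval of the difference from -0.593 to 0.770 percentage points.

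**Figure D1:**
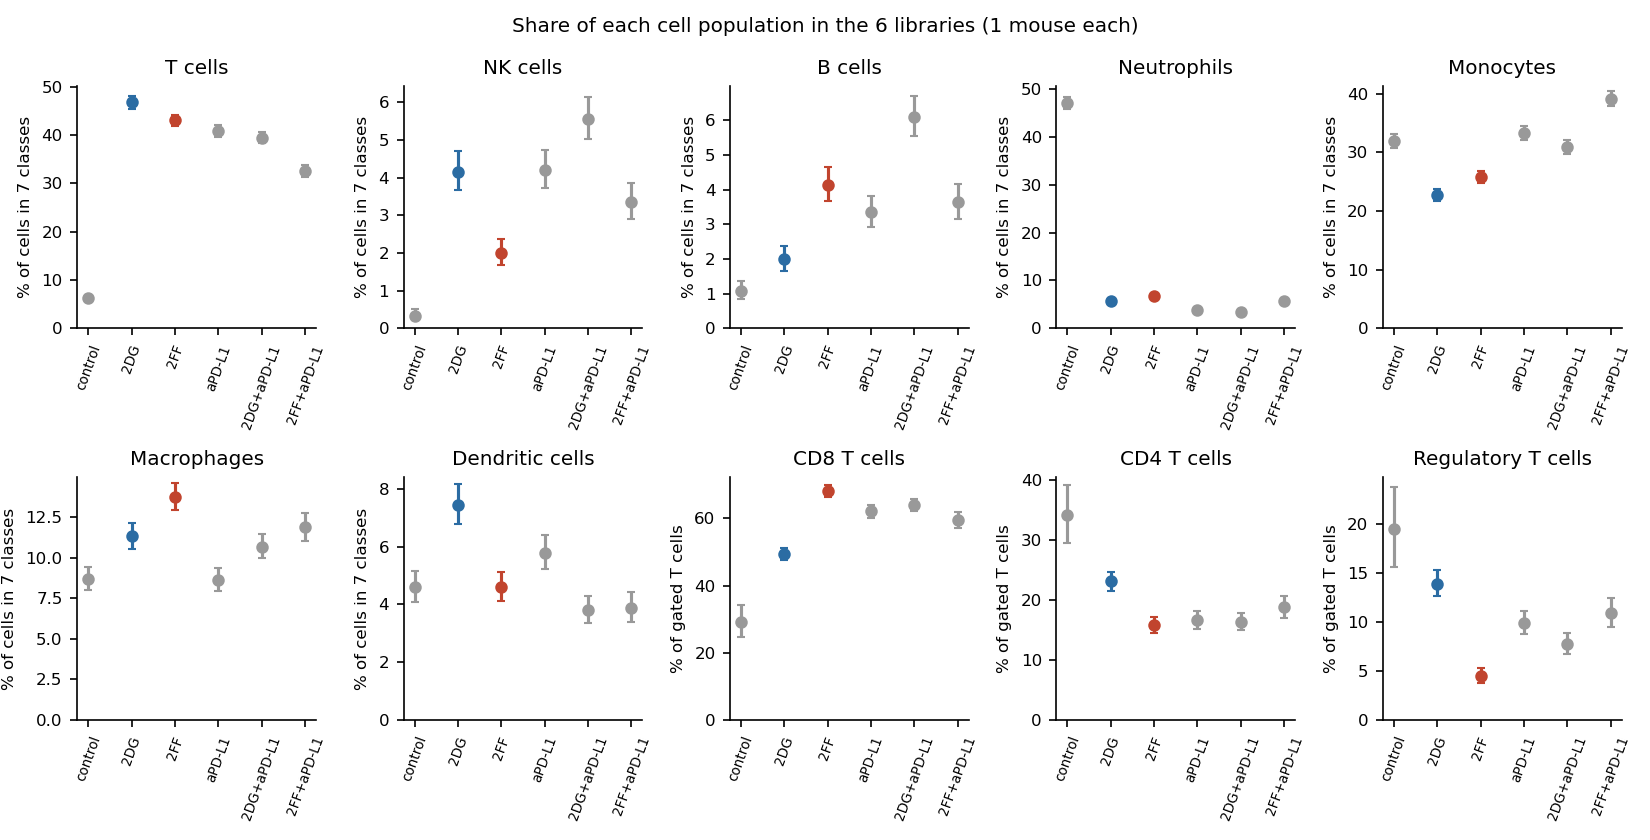
Share of each population in the 6 libraries, with exact 95% intervals; classes are in percent of the cells in 7 classes, and CD8, CD4 and regulatory T cells in percent of gated T cells. Blue is 2DG, red is 2FF and grey the other libraries (aPD-L1 stands for anti-PD-L1). The CD8 share was 68.2% with 2FF and 49.4% with 2DG, and the order was reversed in the pair with anti-PD-L1.

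Gene levels were compared as summed CPM, for which the UMIs of a gene were added over the cells of the class and scaled to the class total of that library. The log2 ratio of 2FF over 2DG was taken after adding 5 CPM to both, for genes whose UMIs in both libraries came to 50 or more, and a gene was counted as past 2-fold at a log2 ratio of 1 or more in size. Since 5 CPM is added, the ratio understates the difference of low genes.

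In T cells, 39 of 12426 genes were at least 2-fold higher with 2FF (0.314%) and 31 with 2DG (0.249%). The 2FF end was led by killer-cell lectin-like receptor genes. Klrc1, which encodes the inhibitory receptor NKG2A, had 164 CPM with 2FF and 53.5 CPM with 2DG, a log2 ratio of 1.53, beside 56.0 CPM in the control and 133 CPM with anti-PD-L1 alone. Its activating relative Klrc2 had 114 and 40.3 CPM (1.40), and Klri2, a further receptor of the family, had 69.4 and 17.7 CPM (1.71). Gm156, with 48.0 and 8.50 CPM (1.97), was the highest. These 4 genes lie on the minus strand within 137 kb of mm10 (chr6:129647496-129784270), in the natural killer gene complex. Slc17a6, a vesicular glutamate transporter, had 110 and 35.9 CPM (1.49).

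The gap was also present within CD8 T cells alone. Klrc1 stood at 210 CPM with 2FF and 90.0 CPM with 2DG within them, a log2 ratio of 1.18. Klrc2 stood at 145 and 62.6 CPM (1.15), Klri2 at 84.3 and 27.9 CPM (1.44), and Gm156 at 60.3 and 13.5 CPM (1.82). CD8 T cells were only 29.3% of T cells in the control (113 cells). Within them the control had 157 CPM for Klrc1, 71.9 CPM for Klrc2, 63.9 CPM for Klri2 and 20.5 CPM for Gm156. Each control level lay between those of 2FF and 2DG, nearer to 2FF for Klrc1 and Klri2 and nearer to 2DG for Klrc2 and Gm156. The 6 NK cell gate markers, Ncr1 and Gzma among them, summed to 542 CPM (2FF) and 248 CPM (2DG) in gated T cells. None was at 0 in either library. Gzma is also an effector gene of CD8 T cells that stood higher with 2FF, and the sum without it was not taken. The part of these markers in the ratios above was not tested.

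The 2DG end of the T cells held genes that regulatory T cells carry. Foxp3 had 64.1 CPM with 2DG and 18.6 CPM with 2FF, and Frmd5 had 123 and 37.03 CPM. Frmd5, a cytoskeletal adaptor gene, stood at 697 CPM (2DG) and 514 CPM (2FF) in regulatory T cells but at 3.37 and 2.03 CPM in CD8 T cells. Inside the regulatory T cells, Foxp3 was at 419 CPM under 2DG and 402 CPM under 2FF. Each of these cells has a Foxp3 UMI by definition, so that level is set in part by the gate. The gap of Foxp3 over all T cells is tied to the regulatory share in the same way. Dscam, a cell adhesion gene, behaved otherwise: its 2DG level was higher in CD8 T cells (205 and 75.3 CPM), CD4 T cells (390 and 107 CPM) and regulatory T cells (765 and 323 CPM) alike. Ttn, the gene of the muscle protein titin, had 96.7 CPM with 2DG and 28.5 CPM with 2FF over all T cells. The control stood above both for Dscam (488 CPM), Frmd5 (349 CPM) and Ttn (186 CPM).

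Effector genes of CD8 T cells stood higher with 2FF. Of 19 genes measured in the activation and cytotoxicity list, 18 were above 0 in CD8 T cells, with a median log2 ratio of 0.45 (median of all genes 0.01), and 3 were past 2-fold, beside 37 of all 11285 genes in these cells (0.328%). These were the killing enzymes Gzma (486 CPM with 2FF, 180 CPM with 2DG) and Gzmb (964 and 444 CPM) and the chemokine Ccl3 (695 and 343 CPM). Prf1, the pore-forming perforin, had 702 and 366 CPM. Gzmk did not share this, with 77.0 and 77.1 CPM. Gzma is 1 of the NK cell markers of the gate, and its level in CD8 T cells was under 20% of that in NK cells, so free RNA may be part of it, which was not tested.

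Ifng, which encodes interferon-gamma, had 597 CPM in CD8 T cells with 2FF (interval 585 to 610) and 435 CPM with 2DG (422 to 448), against 192 CPM in the control. In CD4 T cells it had 631 CPM with 2FF (602 to 661) and 364 CPM with 2DG (347 to 382). NK cells differed less, with 258 CPM (222 to 298) and 212 CPM (189 to 237). These intervals overlap, but that of the log2 ratio without added CPM, 0.017 to 0.55, just left out 0. Cells with an Ifng UMI were 77.2% of CD8 T cells with 2FF and 68.1% with 2DG. That share was not higher with 2FF in CD4 T cells (59.1% and 61.3%) or NK cells (40.4% and 48.8%). In CD4 T cells 1 cell gave 8.64% of the Ifng UMIs with 2FF and 2.51% with 2DG. B cells, which should lack the transcript, held 12.7 and 4.26 CPM, from 20 and 3 UMIs.

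Inhibitory receptor genes mostly lay on the same side, with 8 of 10 genes above 0 in CD8 T cells and a median of 0.31. Lag3 had 389 CPM with 2FF and 232 CPM with 2DG, and Ctla4 had 698 and 474 CPM. Pdcd1, the gene of PD-1, had 226 CPM (218 to 234) and 181 CPM (172 to 189). Tox, a transcription factor of exhausted T cells, went the other way with 1292 and 1545 CPM, and Tigit with 66.6 and 78.5 CPM. None of the 10 was past 2-fold. The dissociation and stress list, which marks cells handled warm or slowly, also stood higher with 2FF in T cells, with 17 of 20 genes above 0 and a median of 0.51. Its summed level in T cells was 7143 CPM with 2FF and 5348 CPM with 2DG, and its part in the other ratios was not tested.

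**Figure D2:**
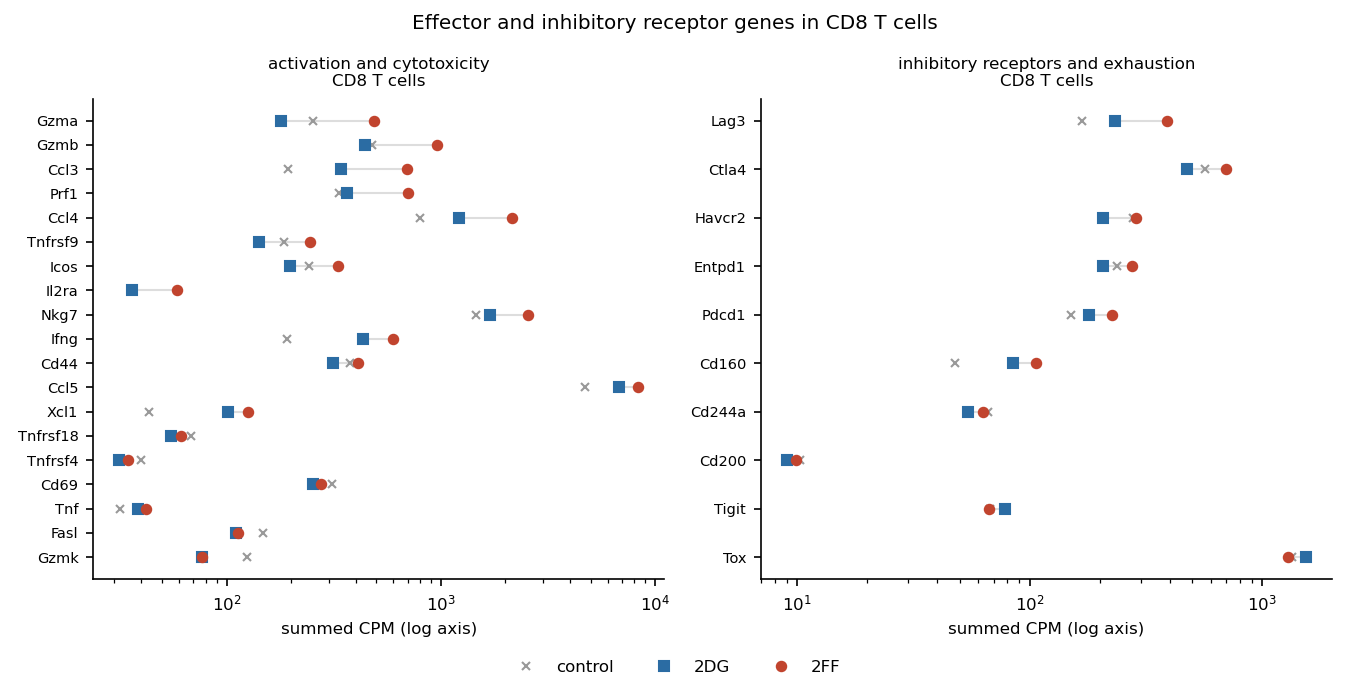
Summed CPM (log axis) of the activation and cytotoxicity genes and of the inhibitory receptor genes in CD8 T cells, with 2FF as red circles, 2DG as blue squares and the control as grey crosses. Gzma, Gzmb and Ccl3 show the widest gaps on the left; on the right Tox and Tigit lie higher with 2DG.

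In the pair with anti-PD-L1, most of these T cell genes were near level or had the opposite order. Klrc1 had 122 CPM in T cells with 2FF plus anti-PD-L1 and 162 CPM with 2DG plus anti-PD-L1, and Klrc2 had 95.3 and 140 CPM. Dscam had 174 and 119 CPM over all T cells, but kept its order inside regulatory T cells with 318 and 415 CPM. Of the 37 genes past 2-fold towards 2FF that had enough UMIs in that pair too, 7 were above 0 there (18.9%), beside 54.1% of all T cell genes. Of the 22 past 2-fold towards 2DG, 3 were below 0 (13.6%), beside 45.9% of all. The activation and cytotoxicity list had a median of -0.08 in CD8 T cells there, and Ifng had 567 and 585 CPM. In CD4 T cells Ifng kept its order there, with 528 and 470 CPM.

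NK cells gave 57 of 5542 genes at least 2-fold higher with 2FF (1.03%) and 19 with 2DG (0.343%), from 136 and 242 cells. Replication-dependent histone genes led with 2FF: Hist1h1b, a linker histone, had 240 CPM against 54.1 CPM, Hist1h2ap 129 against 32.9 CPM, and Hist1h2ae 75.5 against 19.2 CPM. They came from few cells, since 27 NK cells with 2FF carried Hist1h1b and 1 cell gave 54.5% of the Hist1h2ae UMIs. Ifit2, an interferon-induced gene, had 54.9 and 13.0 CPM, with 57.5% of its 40 UMIs with 2FF from 1 cell. At the 2DG end, Gm15564 had 190 CPM against 61.8 CPM and Stxbp2, which serves granule release in cytotoxic lymphocytes, 39.0 against 12.4 CPM. The activation and cytotoxicity list had 13 of 15 genes above 0 and a median of 0.35. The dissociation and stress list lay as far to 2FF in these cells, with 16 of 18 genes above 0, a median of 0.34 and summed levels of 9185 and 6958 CPM, and its part in the ratios was not tested. The 6 NK genes named here rest on 9 to 278 UMIs per library.

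B cells gave 54 of 5681 genes at least 2-fold higher with 2FF (0.951%) and 36 with 2DG (0.634%), from 281 and 116 cells. Centred on the median of all genes, these counts were 46 and 48. The leading 2FF genes were housekeeping genes of low count: Ssr2, a subunit of the translocon-associated complex, had 47.0 and 14.2 CPM, and Kxd1, a lysosome-positioning gene, 48.3 and 15.6 CPM. In the 2DG library they rested on 10 and 11 UMIs. The 2DG end was led by Serpina3f, a protease inhibitor gene with 109 CPM against 24.1 CPM, but 81.8% of its 77 UMIs with 2DG came from 1 cell. Agbl1, a carboxypeptidase gene, had 257 CPM with 2DG and 75.0 CPM with 2FF. Plasma cell markers in the gated B cells summed to 1698 CPM with 2DG and 444 CPM with 2FF. Ribosomal protein genes stood higher with 2FF in 68 of 85 cases, with a median of 0.29.

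Neutrophils held the most genes past 2-fold of the 7 classes, as they did under each alternative tried. In them 84 of 5002 genes were at least 2-fold higher with 2FF (1.68%) and 101 with 2DG (2.02%). The 2 ends had different characters, with inflammatory mediators at the 2FF end and genes of granule proteins and of calprotectin at the 2DG end. All 14 genes of the granule protein list, which includes the calprotectin genes S100a8 and S100a9, were lower with 2FF. Of these, 13 were past 2-fold, and the list had a median log2 ratio of -1.63. S100a8, a subunit of calprotectin, had 35062 CPM with 2DG and 11809 CPM with 2FF, and its partner S100a9, which is also a marker of the gate, had 43775 and 18832 CPM. Ltf, lactoferrin of the secondary granules, had 2276 and 674 CPM, and Lcn2, lipocalin, had 3412 and 1316 CPM. Camp, the cathelicidin precursor, had 3975 and 1041 CPM, with 250 CPM in the control and 2933 CPM with anti-PD-L1 alone, and Wfdc21, a whey acidic protein family gene, had 990 and 230 CPM. Mmp9, a gelatinase found late in granule formation, was the member closest to level with 980 and 857 CPM.

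The number of cells behind these sums varied by gene. S100a8 was carried by most neutrophils of both libraries, 278 of 326 with 2DG and 389 of 453 with 2FF. Camp came from 29 neutrophils with 2DG and 15 with 2FF. The primary granule genes Elane, Mpo and Prtn3, which mark the earliest precursors, came from 4, 1 and 8 neutrophils with 2DG. Elane had 533 UMIs there and was at 0 in the 2FF library, where 3 UMIs would be 2.26 CPM, so the difference in Elane rests on those 4 cells. When every neutrophil was given the same weight, the list's median was -1.09. Outside the list, the 2DG end held Fdps of the mevalonate pathway (40.3 and 4.51 CPM), Taco1, a mitochondrial translation gene (34.9 and 4.51 CPM), and Serpinb1a, an inhibitor of neutrophil elastase (159 and 39.1 CPM).

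At the 2FF end of the neutrophils stood cytokines and chemokines. Ccl4 had 3170 CPM with 2FF and 973 CPM with 2DG, a log2 ratio of 1.70, and Il1a, interleukin-1 alpha, had 716 and 230 CPM (1.62). F3, tissue factor, which starts coagulation, had 182 and 55.8 CPM. Ccl24, a ligand of eosinophil receptors, had 143 CPM with 2FF and only 4 UMIs with 2DG, but 46.8% of its 190 UMIs with 2FF came from 1 of 15 cells, and P2rx7, an ATP-gated channel gene, had 43.8% of its UMIs from 1 cell. Over the whole inflammation and chemokine list, 13 of 13 genes were above 0 with a median of 0.95, and 6 were past 2-fold. The abundant Cxcl2 had 19330 and 12050 CPM, and Il1b 8520 and 4865 CPM. The dissociation and stress list was also higher in neutrophils with 2FF, with 17 of 18 genes above 0, a median of 0.29, 3 genes past 2-fold and summed levels of 22129 and 16408 CPM, and its part in these ratios was not tested.

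Interferon-linked genes stood on the same side in neutrophils. The type I interferon list had 18 of 18 genes above 0 (median 0.65), led by Ifit1 with 239 and 102 CPM, and 4 of its genes, Isg15, Ifit1, Ifit2 and Ifit3, were past 2-fold. The interferon-gamma list had 16 of 18 above 0 (median 0.90), and Gbp5, a guanylate-binding protein gene, had 578 and 264 CPM. MHC class I presentation genes were above 0 in 13 of 14 cases (median 0.59), with Psme2, a proteasome activator subunit, at 345 and 169 CPM. Tap1, Psmb8 and Psmb9 belong to both the interferon-gamma and the MHC class I list. Cd274, which encodes PD-L1, had 2177 CPM in neutrophils with 2FF (2098 to 2258) and 1189 CPM with 2DG (1130 to 1250), the highest levels of the 7 classes.

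Beside anti-PD-L1 the neutrophils kept part of this and not the rest. The type I interferon list had a median of 0.56 there, with 16 of 18 genes above 0, and F3 had 452 CPM with 2FF plus anti-PD-L1 and 144 CPM with 2DG plus anti-PD-L1. Cd274 had 2416 and 1652 CPM. The interferon-gamma list was at -0.11 (7 of 17 genes above 0) and the MHC class I list at -0.26 (5 of 13). The median of all neutrophil genes counted in both pairs was itself -0.11 there. The granule list was at 0.26 and the inflammation and chemokine list at -0.09, and Camp was level with 3430 and 3300 CPM. Of the 63 genes past 2-fold towards 2FF and counted in that pair, 31 were above 0 (49.2%), beside 40.4% of all neutrophil genes. Of the 70 past 2-fold towards 2DG, 15 were below 0 (21.4%), beside 59.6% of all.

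**Figure D3:**
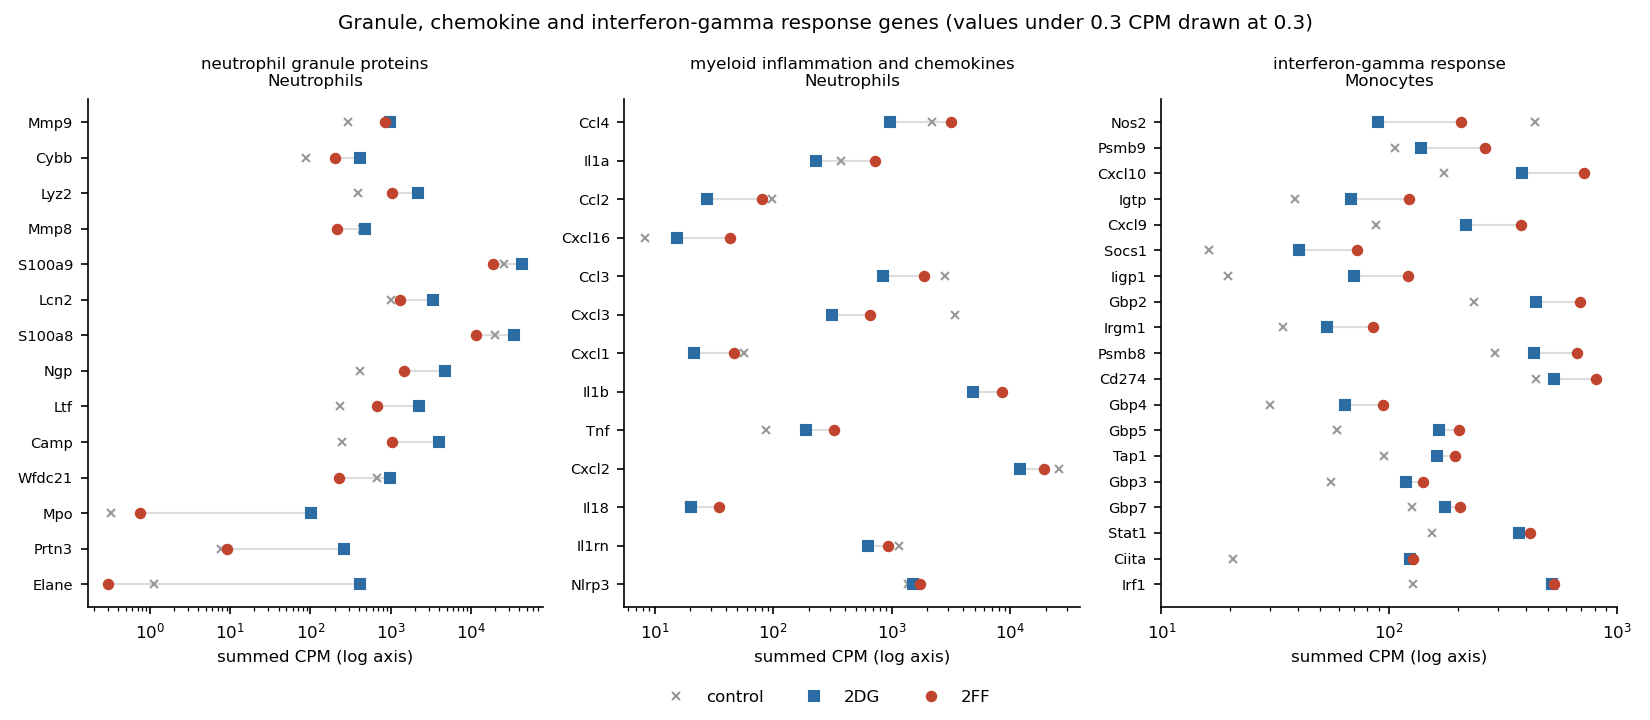
Summed CPM (log axis) of the granule protein genes and the inflammation and chemokine genes in neutrophils and of the interferon-gamma response genes in monocytes, with 2FF as red circles, 2DG as blue squares and the control as grey crosses. All 14 genes of the granule list lie higher with 2DG. All 13 genes of the inflammation and chemokine list in neutrophils and all 19 genes in monocytes lie higher with 2FF.

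Monocytes differed by few genes but by many small steps. In them 16 of 10508 genes were at least 2-fold higher with 2FF (0.152%) and 14 with 2DG (0.133%), or 22 and 12 once ratios were centred on the median of all genes. Saa3, an acute-phase serum amyloid, had 506 CPM with 2FF and 84.8 CPM with 2DG, a log2 ratio of 2.51, beside 515 CPM in the control and 54.1 CPM with anti-PD-L1 alone, though 26.2% of the 2FF UMIs came from 1 cell. Lrg1, also an acute-phase gene, had 92.7 and 28.4 CPM (1.55) over 418 and 114 cells, beside 153 CPM in the control and 16.5 CPM with anti-PD-L1 alone. Cd38, an NAD-consuming ectoenzyme, had 210 and 78.1 CPM (1.37), and the monocyte chemoattractant Ccl7 had 101 and 39.4 CPM (1.26). These genes had the same sign in the pair with anti-PD-L1, where Saa3 had 264 and 164 CPM, Lrg1 52.3 and 24.6 CPM, and Cd38 213 and 142 CPM. Of the 16 genes past 2-fold towards 2FF, 12 were above 0 in that pair (75.0%), beside 42.7% of all monocyte genes. Of the 10 past 2-fold towards 2DG that were counted there, 4 were below 0 (40.0%), beside 57.3% of all.

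The 2DG end of the monocytes held Slc12a2, an ion cotransporter gene (65.6 CPM with 2DG, 25.6 CPM with 2FF), and Hes1, a target of Notch signalling (50.8 and 20.3 CPM). Both had the same sign beside anti-PD-L1, with log2 ratios of -0.60 and -0.32. Hspa1b, a heat shock protein gene, had 390 and 182 CPM and turned to 59.6 and 157 CPM there.

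Interferon, inflammation and MHC lists in monocytes leaned to 2FF, while others did not, such as the ribosomal protein list (38 of 94 genes above 0, median -0.07) and the cell cycle list (3 of 10, median -0.16). All 19 interferon-gamma response genes were above 0 (median 0.62), with Cxcl10, a chemokine that attracts T cells, at 720 and 384 CPM and Nos2, inducible nitric oxide synthase, at 207 and 89.6 CPM. All 17 inflammation and chemokine genes were above 0 (median 0.59). Ccl2 had 440 and 188 CPM; 10 of the 17 were under 20% of the level in another class, so free RNA may be part of them, which was not tested. All 14 MHC class I genes (median 0.34) and all 10 MHC class II genes (median 0.29) were above 0. These lists share genes with the interferon-gamma list. Tap1, Psmb8 and Psmb9 are also MHC class I members, and Ciita is also an MHC class II member. The median of all monocyte genes was -0.03. The 6 macrophage gate markers summed to 649 CPM with 2FF and 394 CPM with 2DG in gated monocytes. With anti-PD-L1 these sums were 669 and 616 CPM. The mix of classical and non-classical monocytes was not compared between the 2 libraries. The part of either in these lists was not tested. In the pair with anti-PD-L1 the interferon-gamma list had a median of -0.04, beside -0.03 for all monocyte genes, and 9 of 19 genes were above 0. The MHC class I list was at -0.02 there (5 of 14) and the MHC class II list at -0.24 (1 of 10).

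Macrophages, like monocytes, held few genes past 2-fold, with 15 of 10532 genes at least 2-fold higher with 2FF (0.142%) and 12 with 2DG (0.114%). Ccl24 had 706 and 240 CPM, a log2 ratio of 1.54, over 282 and 126 cells, and Saa3 had 1123 and 436 CPM. Cd163, a haemoglobin scavenger receptor, had 28.2 and 7.21 CPM, and Rnase2a, an eosinophil-type ribonuclease gene, had 23.2 and 1.91 CPM from 29 and 6 cells. Gbp2b, a guanylate-binding protein gene, stood at the other end with 64.2 CPM under 2DG and 26.5 CPM under 2FF, and Ear2, a ribonuclease gene, with 30.5 and 9.53 CPM. MHC class I genes were above 0 in 13 of 14 cases (median 0.43). Genes of the inflammation and chemokine list were above 0 in 17 of 18 (median 0.37), 8 of the 18 under 20% of the level in another class. With anti-PD-L1 these medians were -0.20 and -0.21, while Ccl24 kept its sign with 309 and 217 CPM.

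Dendritic cells gave 25 of 9504 genes at least 2-fold higher with 2FF (0.263%) and 39 with 2DG (0.41%). The mix of dendritic panels within the class was not compared between the 2 libraries. At the 2FF end, Gstt1, a glutathione transferase, had 90.6 and 31.5 CPM, Selenom, a selenoprotein, had 100.3 and 38.6 CPM, and Cyp7b1, an oxysterol hydroxylase, had 410 and 178 CPM. These gaps were not seen with anti-PD-L1, where Gstt1 had 62.7 and 57.9 CPM, Selenom 90.5 and 107 CPM, and Cyp7b1 325 and 337 CPM. At the 2DG end, Rnd3, a small GTPase, had 103 CPM against 32.3 CPM, and kept its sign with anti-PD-L1 (83.7 and 50.9 CPM). Mgp led by ratio but 90.1% of its 121 UMIs came from 1 cell. Cell cycle genes were below 0 in 12 of 14 cases, with a median of -0.46.

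The levels of Cd274 differed in the same direction in all 4 myeloid classes. Monocytes had 810 CPM (794 to 826) with 2FF and 528 CPM (514 to 543) with 2DG. Macrophages had 573 CPM (558 to 588) and 361 CPM (347 to 376), and dendritic cells 952 CPM (920 to 986) and 678 CPM (657 to 700). T cells had 136 CPM (131 to 141) and 142 CPM (137 to 147), whose intervals overlap and which lie under 20% of the level in another class. NK cells had 135 CPM (109 to 164) and 80.8 CPM (66.9 to 96.8), a log2 ratio of 0.70, also under 20% of the level in another class, and 99.8 and 109 CPM with anti-PD-L1. B cells had 452 CPM (419 to 486) and 470 CPM (421 to 523). With anti-PD-L1 the log2 ratios were 0.55 in neutrophils, 0.31 in monocytes, 0.09 in macrophages and 0.65 in dendritic cells.

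The 3 lists of glycan genes had medians near 0 in T cells. In T cells the fucosylation list had 7 of 12 genes above 0 with a median of 0.08, the N-glycan branching list 6 of 18 with a median of -0.05, and the N-glycan precursor list 20 of 33 with a median of 0.04. The medians farthest from 0 over the 7 classes lay in NK cells and neutrophils. They were 0.25 for fucosylation (NK cells, 4 genes), 0.21 for branching (neutrophils, 10 genes) and -0.14 for the precursor list (neutrophils, 9 genes). Over the 7 classes no gene of these 3 lists was past 2-fold. Fut8, the core fucosyltransferase, had 178 CPM (172 to 184) in T cells with 2FF and 151 CPM (146 to 157) with 2DG. It differed more in B cells, with 144 CPM (125 to 164) and 83.8 CPM (63.8 to 108) and the same order with anti-PD-L1 (146 and 93.3 CPM). In neutrophils the order was opposite, with 46.7 CPM (35.8 to 59.8) and 77.5 CPM (63.1 to 94.3), and with anti-PD-L1 it was 82.3 and 61.4 CPM. Mgat5, which adds the branch that gives tetra-antennary N-glycans, had 229 CPM (222 to 236) and 247 CPM (240 to 254) in T cells, and 56.8 CPM (49.0 to 65.3) and 81.5 CPM (74.1 to 89.3) in dendritic cells. The dendritic cell level of Mgat5 was under 20% of that in another class. Mgat3 held 16 UMIs with 2FF and 52 with 2DG in T cells. Fut4 held 51 and 56 UMIs in monocytes, and Fut9 held 0 UMIs in both libraries in each of the 7 classes, where 3 UMIs would be 0.154 CPM in T cells.

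Glycolysis, the pathway that 2DG enters, leaned to 2FF in several classes without any gene past 2-fold. The list's median was 0.28 in dendritic cells (16 of 19 genes above 0), 0.27 in monocytes (15 of 20) and 0.17 in T cells (14 of 21). Beside the control the order varied by class. The list summed to 5340 CPM (2FF), 4269 CPM (2DG) and 4274 CPM (control) in dendritic cells. In the same order the sums were 6845, 5451 and 10264 CPM in monocytes and 4104, 3430 and 3738 CPM in T cells. CD4 T cells had 18 of 19 genes above 0 and a median of 0.48. Gapdh had 1057 CPM in T cells with 2FF and 760 CPM with 2DG, and Ldha, lactate dehydrogenase, had 343 and 276 CPM, while the first enzyme Hk1 had 105 and 119 CPM. With anti-PD-L1 the medians were 0.27, 0.31 and 0.16 in dendritic cells, monocytes and T cells. The endoplasmic reticulum stress list had medians of 0.05 to 0.21 over the 7 classes.

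**Figure D4:**
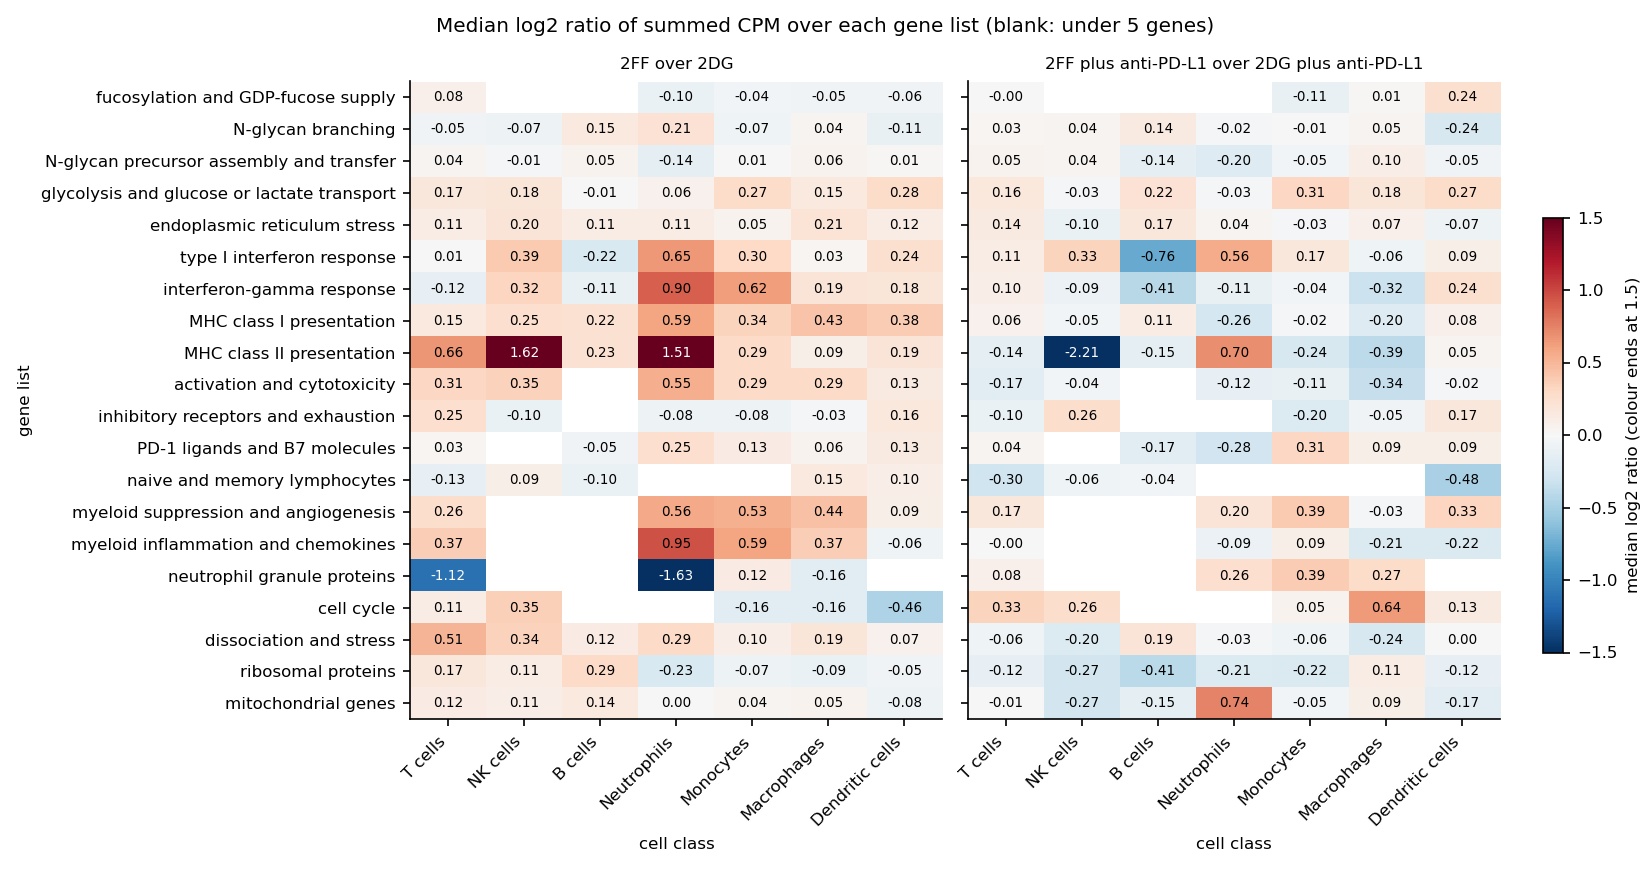
Median log2 ratio of summed CPM over each gene list (rows) in each class (columns), for 2FF over 2DG on the left and for the pair with anti-PD-L1 on the right; red is higher with 2FF. The interferon lists, the MHC class I list and the inflammation and chemokine list are positive in neutrophils and monocytes on the left. The granule list is -1.63 in neutrophils, and the 3 glycan lists stay near 0 in T cells.

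Some RNAs differed the same way in every class. Of 3593 genes with enough UMIs in all 7, 373 were higher with 2FF in each class and 286 with 2DG, by any amount. By a log2 ratio of at least 0.5 in each class, 7 were higher with 2FF, among them Zfp36 and H2-T23. At that size 3 were higher with 2DG (Cdk8, Taco1 and Gm26917). Cdk8, a kinase of the Mediator complex on chromosome 5 (chr5:146231230-146302874, plus strand), lay between -1.54 and -0.82, with 198 to 424 CPM over the classes with 2FF and 485 to 1215 CPM with 2DG. The control had 411 to 1118 CPM. With anti-PD-L1 the order was reversed in every class, at 0.28 to 0.56. Zfp36, an early-response gene of the dissociation list, lay between 0.73 and 1.31, and H2-T23, a class I molecule that presents to the Klrc1 receptor, between 0.82 and 1.10. Gm42418, a locus on chromosome 17 that holds ribosomal RNA sequence, was not among them: it lay between -1.14 and -0.92 in 6 classes, with 25659 CPM under 2FF and 52901 CPM under 2DG in macrophages, but at 0.02 in neutrophils (36540 and 36096 CPM). A difference shared by all classes of a library cannot be told apart here from one between library preparations.

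MHC class II genes in T cells, NK cells and neutrophils were higher with 2FF as well. Their median was 0.66 in T cells, 1.62 in NK cells and 1.51 in neutrophils, but all 10, 6 and 7 genes counted there lay under 20% of their level in another class of the same library. Granule genes in T cells likewise lay at -1.12, all 11 under that limit. These ratios were not read as expression by the class.

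The 2 ends of the 7 classes gave 70 entries, each of 1 gene in 1 class. Some genes filled several entries, such as Cdk8, whose every entry was among the opposite ones. Of the 70 entries, 27 had the opposite sign with anti-PD-L1 beyond counting error in both pairs. A further 19 had the same sign beyond counting error, and 24 fell in neither set. The share of all genes with either outcome was not taken, and counting error is small in classes with many UMIs. T cells held 9 of the opposite ones among their 10 genes and none of the same. Among 10 genes each, monocytes held 7 of the same and 3 opposite, macrophages 5 and 4, neutrophils 3 and 2, dendritic cells 2 and 1, NK cells 1 and 5, and B cells 1 and 3.

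**Figure D5:**
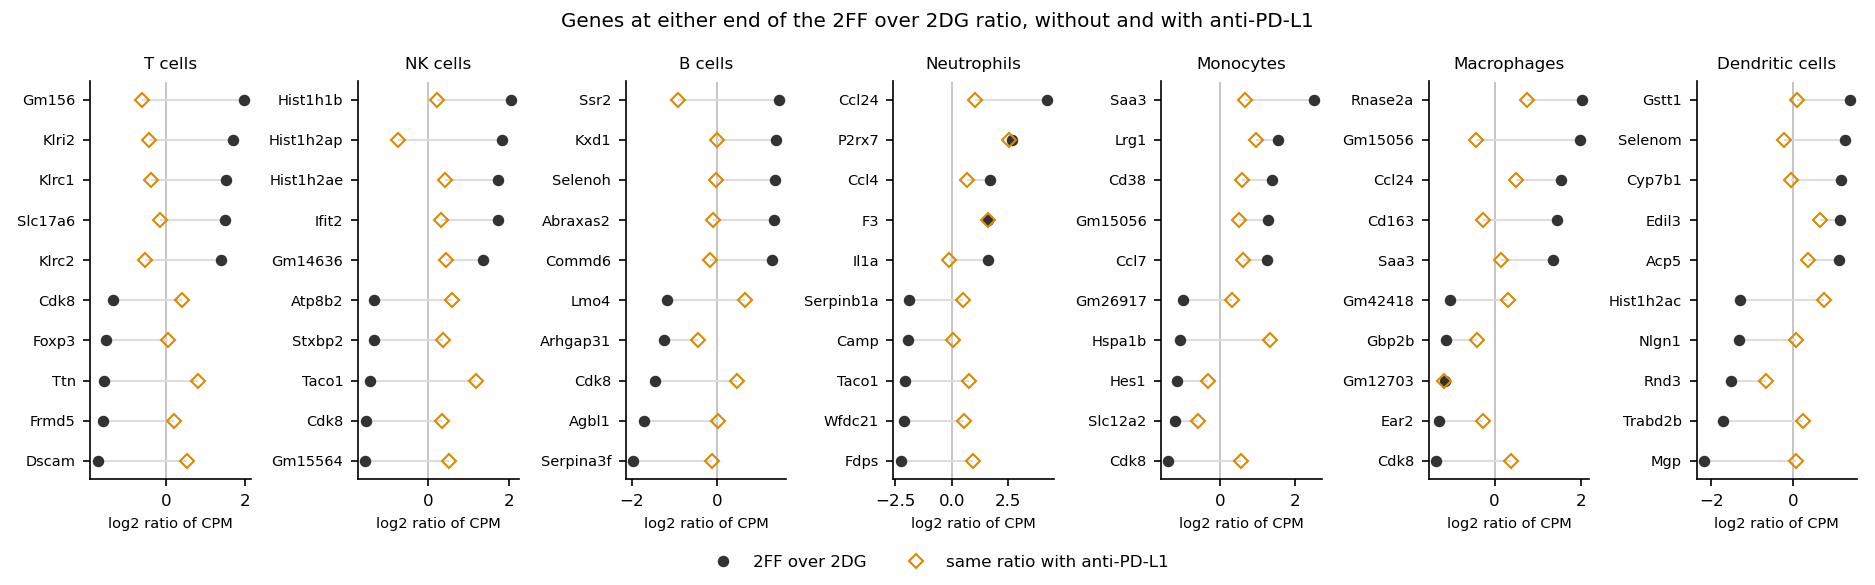
Log2 ratio of summed CPM for the 5 genes highest with 2FF and the 5 highest with 2DG in each class, as filled circles, and the same ratio in the pair with anti-PD-L1, as open diamonds; grey lines join the 2 values of a gene. In T cells the diamonds lie across 0 from nearly every circle, and in monocytes the genes high with 2FF keep their side.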

How the data were processed

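Single-cell libraries of 6 mice were made with the 10x method, 1 per treatment. Whole-number UMI counts of 32285 genes (mm10) in each cell were deposited by the authors, with no normalization. Per the file headers and the study's methods these came from Cell Ranger 7.0.0, whereas the submitters' processing notes name 3.1.0. Coordinates are those of GENCODE M21. Members, gene lists and rules were chosen with earlier results of these data known.

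Cells with under 250 genes or over 5% mitochondrial UMIs were left out. Cells were gated one by one with panels of 6 markers, and 6 panels of other cell types competed with those of the 7 classes. Doublets were scored against simulated pairs (at a marked share that grows with the number of cells, 680 cells with 2FF and 475 with 2DG) and kept, except in an alternative. Shares have exact Clopper-Pearson intervals, their differences Newcombe intervals and sums exact Poisson intervals, at 95% and for counting error only. The class totals of both libraries, from 704242 UMIs (B cells, 2DG) to 19443074 UMIs (T cells, 2FF), set the precision.

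Named are 8 genes that the study discusses (Ifng, Pdcd1, Cd274, Mgat5, Mgat3, Fut4, Fut8, Fut9), members of 21 gene lists, and per class the 5 highest and 5 lowest log2 ratios among genes with at least 50 UMIs in both libraries together, 20 CPM and 10 cells in the higher library. Markers of the class gate, antigen receptor and haemoglobin genes, mitochondrial and ribosomal protein genes and Xist were left out of the last group. So was possible free RNA (under 20% of the CPM in another class of the higher library). Foxp3, used only to divide the T cells, was kept. The genes that differed in every class, and Gm42418, were chosen after their values were seen, and not all of them are reported here. With 1 library per group no test was made. The ratio and interval code was tested on simulated data. Python 3.11.15, numpy 2.4.6, pandas 2.3.3, scipy 1.17.1, scikit-learn 1.9.0 and matplotlib 3.10.9 were used. Alternatives changed the gate, the mitochondrial limit, doublets, depth, the pseudocount, the minimum count, centring, the weight of a cell, free RNA and the denominator.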

Additional observations from a re-analysis of the deposited data

Results flagged for a closer look

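Each result here had the opposite sign in the pair with anti-PD-L1 (2FF plus anti-PD-L1 against 2DG plus anti-PD-L1), with both values beyond counting error. The difference between the pairs was not tested, since each value compares 1 mouse with 1 mouse. Of the shares, B cells were at -2.47 percentage points in that pair, CD8 T cells at -4.52, CD4 T cells at 2.40 and regulatory T cells at 3.17.

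In T cells the log2 ratios of that pair were -0.63 for Gm156, -0.45 for Klri2, -0.40 for Klrc1, -0.17 for Slc17a6 and -0.53 for Klrc2. They were 0.52 for Dscam, 0.19 for Frmd5, 0.80 for Ttn and 0.39 for Cdk8, all higher with 2DG as single drug. Inside regulatory T cells Dscam and Frmd5 did not reverse, at -0.38 and -0.23 in that pair. In that pair they were at 0.50 and 0.34 in CD8 T cells and at 1.21 and 1.08 in CD4 T cells. With the single drugs Dscam was at -1.39 in CD8 T cells and -1.83 in CD4 T cells, so it reversed in both. Frmd5 was already at 0.34 in CD4 T cells with the single drugs, so its sign did not change there. In CD8 T cells it was at -0.25, with an interval of the plain ratio from -1.52 to 0.036. Ifng was at -0.092 and Pdcd1 at -0.34 in T cells, and Pdcd1 at -0.47 in CD8 T cells.

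In NK cells Hist1h2ap was at -0.74, Gm15564 at 0.51, Cdk8 at 0.34, Taco1 at 1.19 and Atp8b2 at 0.59. In B cells Ssr2 was at -0.92, Cdk8 at 0.46 and Lmo4 at 0.66. In neutrophils the granule gene Wfdc21 was at 0.56 and Serpinb1a at 0.49. In monocytes Cdk8 was at 0.55, Hspa1b at 1.32 and Gm26917 at 0.32. In macrophages Gm15056 was at -0.44, Cd163 at -0.28, Cdk8 at 0.37 and Gm42418 at 0.30. In dendritic cells Hist1h2ac was at 0.76.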

How the results depend on the processing

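No paired analysis was possible because each group has 1 library. Of 57 alternative values of the shares, 55 moved by less than counting error. The split of T cells into CD8, CD4 and regulatory cells was made once on full counts and reused in every alternative. These values therefore do not show how that split depends on depth. Regulatory T cells held a median of 4927 UMIs with 2FF and 5953 with 2DG. The B cell difference was 1.54 percentage points of all cells that passed, and the neutrophil difference 0.00101 with the gate on cells thinned to 2000 UMIs. Of 1692 alternative list medians, 84 lay outside the median limits of the members' own ratio intervals, and 0 reversed. Those limits are not the counting error of a list median. Of 1207 gene ratios, 254 lay outside the interval of the plain ratio, taken without added CPM. Some lay outside it already in the main setting: 14 did so with no minimum count, which leaves the ratio unchanged. Reversal was seen in 3 gene ratios. Serpina3f in B cells was at 0.19 with the gate on thinned cells. Cd274 in CD4 T cells was at -0.073 without doublet-like cells and at -0.053 with that gate.

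Counts of genes past 2-fold depended most on the pseudocount and the minimum count. With 1 CPM added they were 203 in T cells, 137 in B cells, 90 in monocytes, 91 in macrophages and 175 in dendritic cells. With 20 CPM they were 28 in T cells, 36 in NK cells, 27 in B cells, 93 in neutrophils, 13 in monocytes, 9 in macrophages and 16 in dendritic cells. With no minimum they were 413 in NK cells, 409 in B cells and 473 in neutrophils, and with at least 200 UMIs 17 in NK cells, 17 in B cells, 71 in neutrophils and 28 in dendritic cells. A lead of 1 marker gave 124 in NK cells and 172 in B cells, and removal of doublet-like cells 46 in NK cells. Without possible free RNA 40 were left in T cells, 44 in NK cells and 38 in dendritic cells, and with equal weight for every cell 111 in neutrophils. Centring on the median of all genes turned the split of higher against lower with 2FF from 54 and 36 to 46 and 48 in B cells and from 16 and 14 to 22 and 12 in monocytes.

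The 116 B cells with 2DG and the 136 NK cells with 2FF limit the depth of these classes, and neutrophils had the lowest median UMIs per cell.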
